A study of Mus musculus with 8 samples.

Results

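Very long loops are the contacts of 1 to 2 Mb in 4 loop lists made from FOXA1 and HNF4G Hi-ChIP of mouse pancreatic cancer cells. A loop entered this set when the midpoints of its 2 anchors lay 1000000 bp or more apart, and 30336 of the 249200 distinct loops of the lists did so. Loops end at 2000000 bp in every list, so the set covers the far end of what was listed. The rule used the distance alone, and the loops just inside and just outside it (1000009 and 999927 bp in the FOXA1 liver mets list) held the same list value of 1.87.

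Hi-ChIP ligates DNA fragments that lie close together in the nucleus and then enriches the ligated fragments with an antibody, so that a loop reads as a contact between 2 anchors at which the protein is near. FOXA1 is a pioneer factor of the forkhead family that can open chromatin at enhancers of foregut and pancreatic epithelium. For pancreatic ductal adenocarcinoma, the paper that reported these data proposes that FOXA1 has a nonpioneering role. HNF4G is a nuclear receptor of the hepatocyte nuclear factor 4 family, active in gut and pancreatic epithelium. Contacts over more than 1 Mb usually cross several of the domains into which cohesin and CTCF fold chromosomes, and they are rare next to contacts within a domain.

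The series held 8 samples of cultured KPC cells, a mouse pancreatic cancer model, with 2 replicates in each of 4 groups. FOXA1 (antibody ab5089) and HNF4G (antibody HPA005438) were each profiled in a line from a primary tumor and in the matched line from a liver metastasis (liver mets). All groups were wild type, untreated and grown in DMEM with 10% FBS. Each group had 1 loop list covering both replicates, so no spread between replicates could be calculated and no test was made between groups. The 95% intervals given here cover counting error only, and loops that share an anchor are not independent. Each state is a single cell line, so line and disease state cannot be told apart. Read depth was not given in the lists. No expression was measured here, so the cell type was not checked against marker levels. Of other cell types the lines could hold, 0 of 4 leukocyte marker genes and 1 of 4 hepatocyte marker genes (Apoa1) had their start at an anchor with a partner in range, against 48.2% of all protein-coding genes, and lists this short are weak evidence on either cell type.

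Sequences are shown for matches at 3 of the 4 loops found in all lists, among them the Tns4 to Krt19 loop on chromosome 11. That loop held at most 6.48, and the highest list values, of 20, lay at other anchor pairs of its region. Matches are also shown for the intergenic anchors beside Tns4 and beside Krt19, which took part in loops of 3 lists. The printed sequences are examples, and matches not printed are counted in the text. Anchors were searched on both strands for the forkhead letters TGTTTAC, the HNF4 letters CAAAGTCCA, the AP-1 letters TGACTCA or TGAGTCA, and a CTCF core. Forkhead letters occurred in 36.6% of all 30542 anchors, HNF4 letters in 4.40%, AP-1 letters in 51.3% and the CTCF core in 10.4%. These shares grow with anchor length, and per 10 kb of anchor the letters occurred 1.79, 0.168, 2.95 and 0.423 times. A match describes the letters and is not a bound site. The first stretch lies in an intron of 4930539E08Rik at chr17:28913243-28913410 (GRCm38, plus strand), inside an anchor of a loop listed in all 4 lists. Its capitals mark forkhead letters on the minus strand, HNF4 letters and AP-1 letters, which do not overlap.

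4930539E08Rik intron: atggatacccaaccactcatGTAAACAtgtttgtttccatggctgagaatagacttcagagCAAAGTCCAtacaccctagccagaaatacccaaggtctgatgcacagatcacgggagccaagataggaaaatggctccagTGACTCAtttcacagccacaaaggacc

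These 3 matches lie within 128 bases, and the anchor held 1 more match of AP-1 letters. The anchor at the other end of the loop, D17Wsu92e, held 0 matches of any of the 4 kinds. All 3 kinds of letters within 300 bases occurred in 36 of 30542 anchors (0.118%) and in 26 of the 20692 anchors of very long loops (0.126%). For very long loops found in 2 or more lists it was 6 of 2585 anchors (0.232%). Anchors of those loops were wider, with a median of 3495 bp against 2341 bp over all anchor pairs 1 to 2 Mb apart. The part of width in these shares was not tested. Next come matches on the Tns4 side of the keratin genes, all on chromosome 11, printed 5′ to 3′ on the strand that holds the letters, with the matches in capitals. Forkhead letters occurred 3 times in introns of Tns4, whose anchor also held 2 matches of AP-1 letters that are not printed. The neighbouring intergenic anchor, chr11:99100839-99109331, held 1 match each of HNF4, forkhead and AP-1 letters.

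Tns4 intron, forkhead (chr11:99082220-99082266, plus strand): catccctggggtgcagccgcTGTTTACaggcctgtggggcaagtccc
Tns4 intron, forkhead (chr11:99083209-99083255, plus strand): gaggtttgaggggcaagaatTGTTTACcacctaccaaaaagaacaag
Tns4 intron, forkhead (chr11:99086491-99086537, plus strand): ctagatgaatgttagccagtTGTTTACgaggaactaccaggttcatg
Intergenic beyond Tns4, HNF4 (chr11:99106137-99106185, minus strand): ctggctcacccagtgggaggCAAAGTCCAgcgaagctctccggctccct
Intergenic beyond Tns4, forkhead (chr11:99106282-99106328, plus strand): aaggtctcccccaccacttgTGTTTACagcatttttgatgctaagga
Intergenic beyond Tns4, AP-1 (chr11:99106460-99106506, plus strand): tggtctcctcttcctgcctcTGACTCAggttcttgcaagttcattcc

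On the other side, the anchor at the start of Krt19 held AP-1 letters in an intron and no forkhead or HNF4 letters. The adjoining intergenic anchor held forkhead letters and 3 matches of AP-1 letters, which are not printed.

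Krt19 intron, AP-1 (chr11:100147734-100147780, plus strand): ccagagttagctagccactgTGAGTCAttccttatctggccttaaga
Intergenic beside Krt19, forkhead (chr11:100159680-100159726, plus strand): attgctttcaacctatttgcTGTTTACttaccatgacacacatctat

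For a second loop of all 4 lists, between Prkab1 and Wsb2 on chromosome 5, the Prkab1 anchor held 2 matches of forkhead letters in introns and 1 of AP-1 letters. The Wsb2 anchor held HNF4 letters in an intron, and also 1 match of forkhead letters, 4 of AP-1 letters and 1 CTCF core. Printed here are the intronic forkhead and HNF4 matches alone. In the remaining loop of all lists, the Pfkfb2 anchor held 3 forkhead and 7 AP-1 matches and the Gm26034 anchor 2 AP-1 matches and 1 CTCF core. All sequences are from the RefSeq GRCm38 genome.

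Prkab1 intron, forkhead (chr5:116020722-116020768, minus strand): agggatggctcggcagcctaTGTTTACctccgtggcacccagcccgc
Prkab1 intron, forkhead (chr5:116020928-116020974, plus strand): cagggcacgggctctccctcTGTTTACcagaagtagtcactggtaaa
Wsb2 intron, HNF4 (chr5:117360966-117361014, plus strand): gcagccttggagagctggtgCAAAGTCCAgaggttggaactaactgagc

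The FOXA1 lists held 12035 (liver mets) and 8395 (tumor) very long loops, and the HNF4G lists 5586 and 6108. They made up 9.58% and 8.06% of the FOXA1 lists and 7.15% and 8.0% of the HNF4G lists. Where 4 values stand in a row from here on, they follow this order, liver mets before tumor and FOXA1 before HNF4G. FOXA1 thus had more very long loops in liver mets than in tumor, and HNF4G slightly fewer. Liver mets held 1.43 times as many as tumor (95% interval 1.39 to 1.47) for FOXA1 and 0.915 times as many (0.882 to 0.948) for HNF4G. As a share of each list, the FOXA1 ratio was 1.19. FOXA1 listed 1.37 times as many very long loops as HNF4G in tumor (1.33 to 1.42) and 2.15 times as many in liver mets (2.09 to 2.22). The FOXA1 lists were also larger as a whole. As shares of each list, FOXA1 and HNF4G were nearly equal in tumor (8.06% and 8.0%) and differed in liver mets (9.58% and 7.15%).

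The 4 lists together named 30542 anchors, which form 525914 pairs 1 to 2 Mb apart on a chromosome, called available pairs here. Of these available pairs, 5.77% were listed in at least 1 list and 0.318% in 2 or more. Listing fell with distance. Between 1.0 and 1.2 Mb, 30.7, 21.7, 14.1 and 15.4 of 1000 available pairs were listed. Between 1.8 and 2.0 Mb the rates were 17.7, 12.4, 8.16 and 8.80. The FOXA1 ratio of liver mets to tumor stayed between 1.41 and 1.47 in the 5 distance ranges, and that of HNF4G between 0.893 and 0.930.

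**Figure D1:**
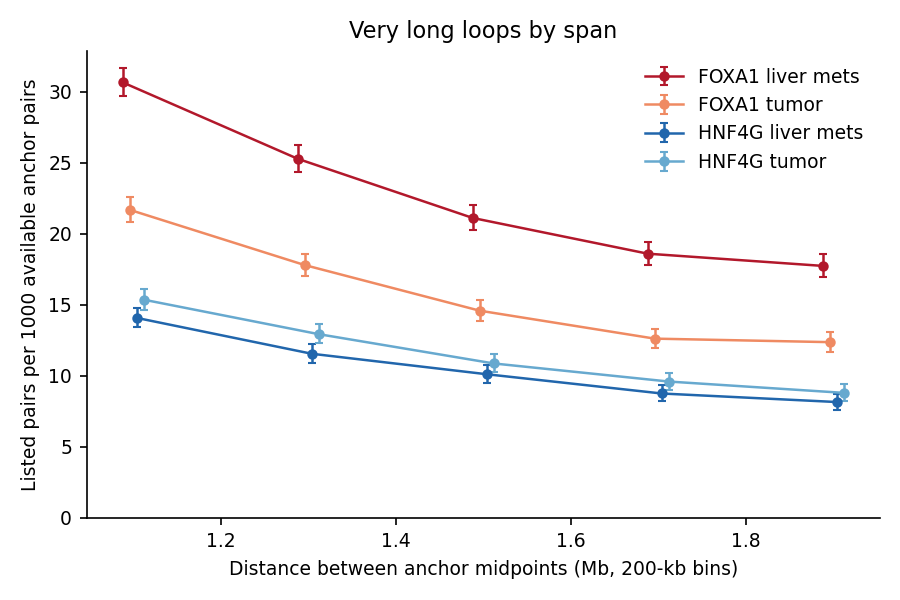
Listed very long loops per 1000 available anchor pairs (vertical axis) against the distance between anchor midpoints in 200-kb bins (horizontal axis, Mb), with 1 line per list and 95% Wilson intervals as bars. The FOXA1 liver mets line falls from 30.7 to 17.7 and lies above the other lines in every bin.

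Very few of these contacts stood above the lowest value of their list. Each loop carries a value that the files do not name and that was read here, from its ties and its upper end at 20, as −log10 adjusted p. It was tied at 1.87 for 96.6% of the FOXA1 liver mets very long loops. The corresponding ties were 1.91 for 97.8% of FOXA1 tumor, 1.99 for 98.4% of HNF4G liver mets and 1.99 for 97.8% of HNF4G tumor. None lay below the tie. The remaining 415, 185, 91 and 132 loops fell into separate bands, of which the next ran from 3.78 to 4.37 over the lists, with 0 loops between the bands.

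The same pair of anchors was seldom found more than once. Of the 30336 very long loops, 28663 were in 1 list, 1562 in 2, 107 in 3 and 4 in all 4. Those in 2 or more lists, called recurring here, numbered 1673, or 5.51% (5.26 to 5.78). The share was 11.3% for loops of 500 to 1000 kb, 23.4% for 200 to 500 kb and 39.4% for 100 to 200 kb. The share of available pairs listed at all moved the same way, from 51.1% at 100 to 200 kb through 28.5% and 12.7% to 5.77%, so the fall in recurrence with distance cannot be told apart from the fall in listing.

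**Figure D2:**
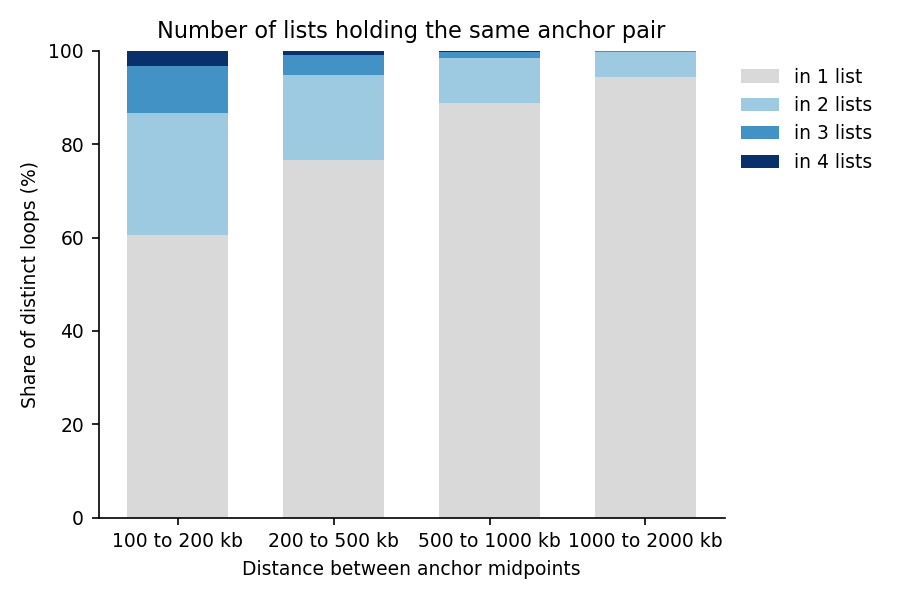
Share of distinct loops (vertical axis, %) found in 1, 2, 3 or 4 lists, by distance between anchor midpoints (horizontal axis). The share in 2 or more lists falls from 39.4% at 100 to 200 kb to 5.51% at 1 to 2 Mb.

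Sharing was of similar size for every pair of lists, whether they had the antibody, the line or neither in common. The FOXA1 liver mets and FOXA1 tumor lists shared 497, which is 4.13% of the former and 5.92% of the latter. FOXA1 liver mets and HNF4G liver mets shared 358 (2.97% and 6.41%), and the HNF4G lists shared 186 (3.33% of liver mets and 3.05% of tumor). Relative to pairs not listed, the odds ratio of sharing lay between 2.73 and 2.99 for all 6 pairs of lists, with overlapping intervals. Within classes of anchor width the 6 odds ratios lay between 1.98 and 2.24, an alternative added after the data were seen.

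Contacts between the same neighbourhoods were more frequent than contacts between the same anchors. With each anchor widened by 25 kb on both sides, 63.5% of very long loops had a match in another list. Wide windows match often, however. Of pairs listed elsewhere but not in the FOXA1 liver mets list, 48.2% had a loop of that list in the widened windows, against 34.7% of pairs listed nowhere. For the HNF4G tumor list the shares were 33.0% and 22.7%. The odds ratios of these contrasts lay between 1.68 and 1.76 over the 4 lists.

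Before anchor width was taken into account, very long loops joined promoters somewhat more often than available pairs did. The share at promoters was higher for HNF4G than for FOXA1. A promoter anchor had a gene start within 2 kb, and 13819 anchors did. At least 1 anchor was at a promoter in 74.9%, 76.7%, 78.6% and 81.2% of very long loops, against 72.2% of available pairs. The odds ratios were 1.15 (1.11 to 1.2), 1.27 (1.2 to 1.33), 1.42 (1.33 to 1.51) and 1.66 (1.56 to 1.78). The share was 4.50 percentage points higher for HNF4G than for FOXA1 in tumor (3.16 to 5.83) and 3.70 points higher in liver mets (2.37 to 5.02). Between lines it was lower in liver mets by smaller margins, with differences of -1.73 points for FOXA1 and -2.53 for HNF4G. Loops of 100 to 1000 kb had the same order of lists, with 72.5%, 73.9%, 75.6% and 78.2%, so the order was not particular to very long loops.

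Wide anchors held far more very long loops than narrow ones. Where both anchors were in the narrowest of 5 width classes, 23.3 of 1000 available pairs were listed in any list and 0.427 in 2 or more. Where both were in the widest class, these rates were 165 and 20.6. Median anchor width rose from 2341 bp over all available pairs to 2727 bp in very long loops, 3495 bp in those of 2 or more lists and 5083 bp in those of 3 or more. Within width classes the promoter odds ratio was 0.981 (0.940 to 1.02) for FOXA1 liver mets and 1.10 for FOXA1 tumor. It was 1.24 for HNF4G liver mets and 1.43 for HNF4G tumor, both with intervals above 1. Pairs with a promoter at both ends made up 27.9%, 29.5%, 33.2% and 35.6% of the lists in the order above, against 24.5% of available pairs.

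Anchors rich in shorter loops also held more of the very long ones. Where each anchor had at most 12 loops under 1 Mb summed over the lists, 39.4 of 1000 available pairs were listed in any list. Where each had more than 26, the rate was 91.4. Recurring loops differed more, with 1.44 and 7.13 per 1000.

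Gene-poor surroundings were over-represented for FOXA1. Surroundings were called gene-poor with at most 8 protein-coding starts within 500 kb of the anchor and gene-rich with more than 17. Both anchors were gene-poor in 17.2% of FOXA1 liver mets very long loops and 16.9% of FOXA1 tumor, against 12.8% of available pairs, with odds ratios of 1.43 (1.36 to 1.5) and 1.4 (1.32 to 1.48). The HNF4G ratios were 1.19 (1.10 to 1.28) for liver mets and 1.02 (0.943 to 1.10) for tumor. Both anchors were gene-rich in 27.6% and 29.1% of the FOXA1 lists and in 30.3% and 33.2% of HNF4G liver mets and tumor, against 29.0% of available pairs. The gene-rich odds ratio for HNF4G tumor, 1.22 (1.16 to 1.29), was 1.15 (1.09 to 1.21) within width classes, and it alone kept an interval above 1 there. In loops of 100 to 1000 kb the share with both anchors gene-poor also fell over the lists, from 23.3% through 22.2% and 21.5% to 19.1%.

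Loops between a gene-rich and a gene-poor anchor were under-represented in every list. Their odds ratios were 0.864, 0.801, 0.816 and 0.769, with all intervals below 1. In recurring loops the ratio for mixed surroundings was 0.649 (0.520 to 0.811), and that for 2 gene-poor anchors 1.51 (1.33 to 1.71). A median of 19 protein-coding starts lay between the anchors of a very long loop, against 22 for available pairs. No protein-coding start lay between the anchors in 2.39% of recurring loops, against 0.209% of available pairs.

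**Figure D3:**
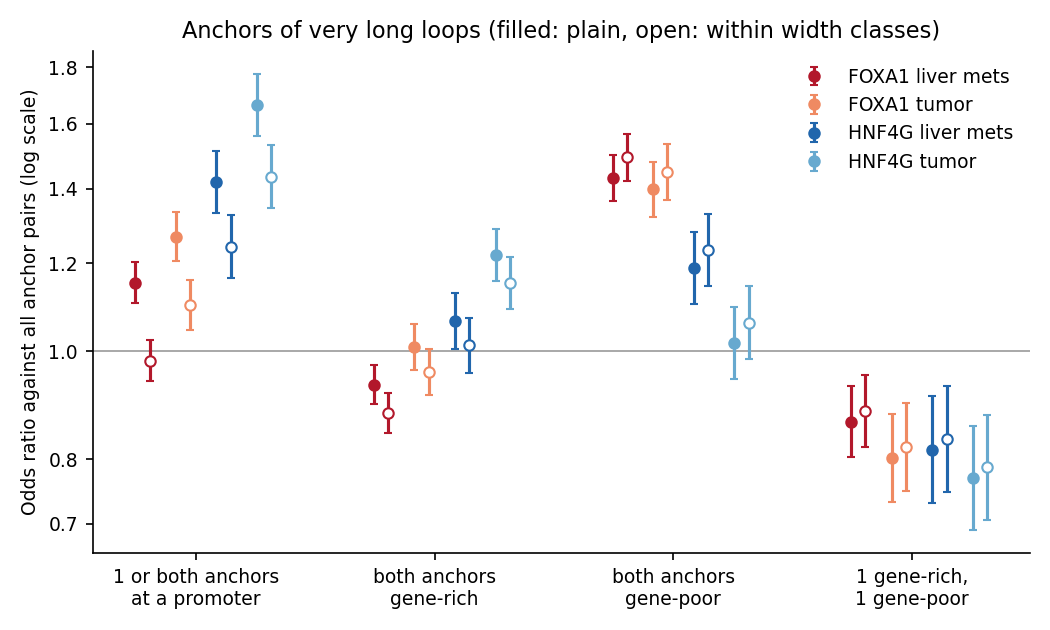
Odds ratios of listed against all available anchor pairs 1 to 2 Mb apart (vertical axis, log scale) for 4 properties of the anchors (horizontal axis), with 1 colour per list. Filled points are plain odds ratios, open points are odds ratios within classes of anchor width, and bars are 95% intervals. The promoter odds ratios rise from 1.15 to 1.66 from the FOXA1 liver mets to the HNF4G tumor list, and the gene-poor ones fall from 1.43 to 1.02.

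Chromosome 19, the shortest mouse autosome, held very long loops most densely in each list. Its rates were 34.8 (32.9 to 36.8), 25, 17.9 and 19.2 of 1000 available pairs. Over all chromosomes they were 22.9, 16.0, 10.6 and 11.6. Chromosome 6 came next in each list, with 29.0, 20.7, 15.6 and 14.4. Chromosome 19 also had high rates at 200 to 500 kb, with 182 of 1000 pairs listed for FOXA1 liver mets against 128 over all chromosomes. Its anchors lay densest, at 21 per Mb, and its rate over that of all chromosomes was 1.3 where both anchors were in the widest class, an alternative added after the data were seen.

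The lowest rates were on chromosome X for FOXA1 liver mets (11.1 per 1000, 6.06 to 20.4) and HNF4G tumor (5.57, 2.38 to 13), on chromosome 4 for FOXA1 tumor (11) and on chromosome 14 for HNF4G liver mets (5.37). Chromosome X offered only 898 available pairs and held 10, 13, 7 and 5 very long loops, so its rates are imprecise. Chromosome 11, with a median of 20 protein-coding starts within 500 kb of its anchors, held the largest number, at 1492, 971, 616 and 871. Its rate was 13 per 1000 for HNF4G tumor and 9.23 for HNF4G liver mets.

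**Figure D4:**
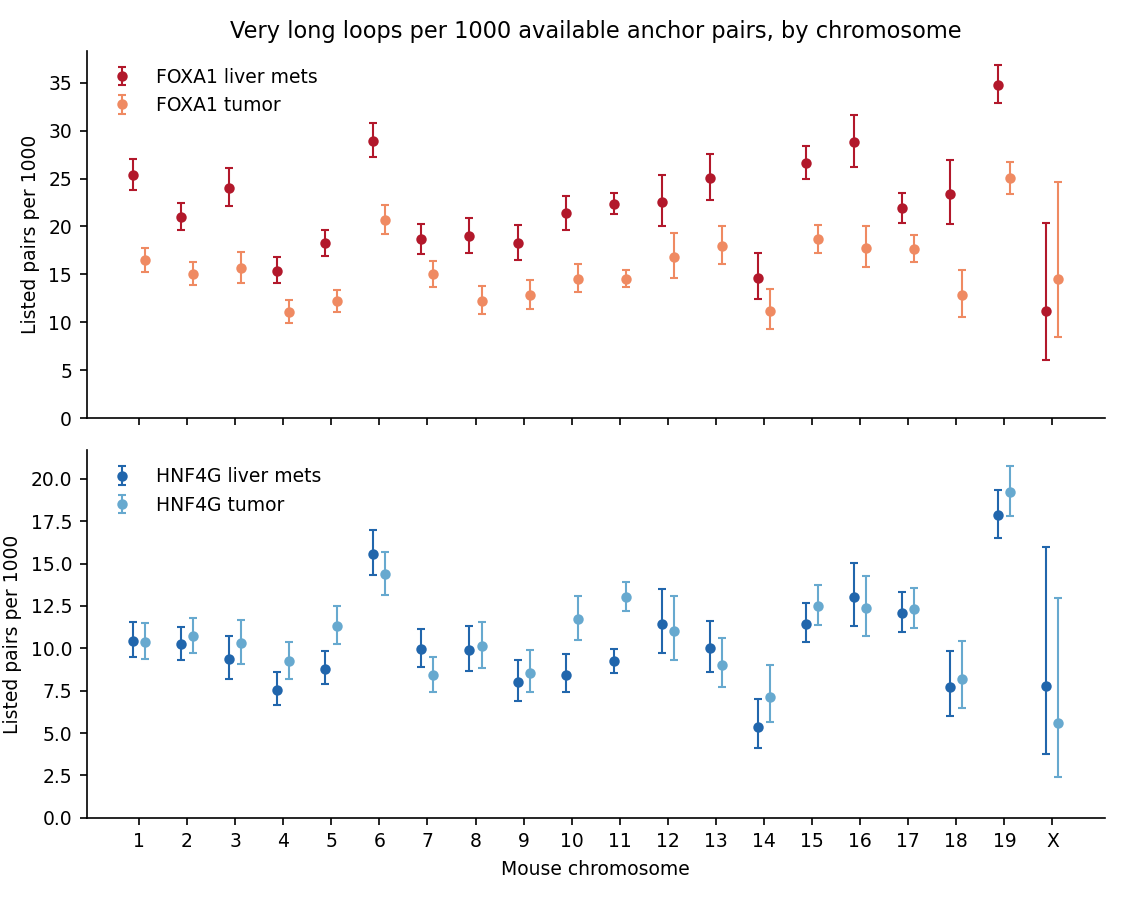
Very long loops per 1000 available anchor pairs (vertical axes) on each mouse chromosome (horizontal axis), with FOXA1 lists above and HNF4G lists below and bars as 95% Wilson intervals. Chromosome 19 stands highest in all 4 lists, and the wide bars on X reflect 898 available pairs.

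CTCF motifs that point towards each other mark many loops formed by cohesin. Where both anchors held the CTCF core on a single strand, 174 of 597 very long loops (29.1%) were convergent, against 24.3% of available pairs, with an odds ratio of 1.31 (1.09 to 1.58). It was 1.14 with a stricter core and 1.15 (0.621 to 2.13) in recurring loops. By list the odds ratios were 1.35 (1.02 to 1.78), 1.12, 1.27 and 1.3, and only the FOXA1 liver mets interval excluded 1. Loops with the cores on the same strand at both ends gave 0.837 (0.708 to 0.99). Of the 111 loops in 3 or 4 lists, 5 had such single-strand cores at both ends and 1 of these was convergent. In 3 lists, it joined Pheta1, an endosome protein gene, to Rhof, a small GTPase gene, on chromosome 5 over 1282 kb, and a core of each anchor is shown in capitals, the Pheta1 anchor holding 2 on its plus strand.

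Pheta1 anchor, CTCF core (chr5:121852387-121852438, plus strand): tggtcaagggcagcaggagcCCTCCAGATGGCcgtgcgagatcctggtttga
Rhof anchor, CTCF core (chr5:123132960-123133011, minus strand): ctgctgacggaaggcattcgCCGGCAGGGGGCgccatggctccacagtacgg

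Motif density in very long loops lay near that in available pairs, and HNF4G tumor departed from it most. Forkhead letters occurred 1.63 and 1.62 times per 10 kb of anchor in the FOXA1 liver mets and tumor loops and 1.53 and 1.49 times in the HNF4G loops, against 1.65 in available pairs. HNF4 letters occurred 0.174, 0.171, 0.162 and 0.178 times, against 0.166. AP-1 letters ranged from 2.68 to 2.95 times over the lists, against 2.82. The CTCF core occurred 0.474, 0.483, 0.492 and 0.546 times, against 0.489.

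Loops in all 4 lists numbered 4. On chromosome 11 the start of Tns4, a tensin of focal adhesions, met the start of Krt19, the type I keratin of ductal epithelium, over 1062 kb. This loop held a value of 6.48 in FOXA1 liver mets and the tied lowest value in the other lists. The other 3 held the tied lowest value in every list. They joined Pfkfb2, which controls glycolytic flux, and AA986860 to the starts of the noncoding genes Gm26034 and Gm37120 on chromosome 1 (1361 kb), and Prkab1, a subunit of the energy sensor AMPK, to Wsb2 on chromosome 5 (1340 kb). The last joined D17Wsu92e to 4930539E08Rik on chromosome 17 (1093 kb).

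The Tns4 to Krt19 contact was part of a wider set of contacts over the type I keratin genes. Krt19 had 31 distinct very long loops of 107 available pairs, with 18, 12, 3 and 6 over the lists. Of these, 5 recurred, and all 5 ran to the Rara and Tns4 side. The intergenic anchor beyond Tns4 met Krt19 over 1043 kb with a value of 20 in FOXA1 liver mets, the highest that any very long loop held. Its value was 1.91 for FOXA1 tumor and 1.99 for HNF4G liver mets, and HNF4G tumor did not list it. Rara, a retinoic acid receptor, met Krt19 over 1200 kb with a value of 20 in FOXA1 tumor and 1.87 in FOXA1 liver mets, and in no HNF4G list.

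Further partners lay beyond Krt19. Rara met Jup, the junction protein plakoglobin, over 1445 kb in 3 lists, and a neighbouring Rara anchor met Jup over 1458 kb in 3 lists. The Rara anchor also met Eif1, a translation initiation factor, in 2 lists and an exon of Ttc25 in 3. Jup in turn met Erbb2, a receptor tyrosine kinase, over 1977 kb in both FOXA1 lists. In an interval of chromosome 11 around the keratin genes, drawn after these values were seen, 485 available pairs crossed from before the first keratin start to a point beyond it. Of these, 138 (28.5%) were listed and 31 (6.39%) recurred, against 5.77% and 0.318% of all available pairs. Neither anchor width nor the choice of interval was allowed for, and the difference was not tested. Pairs that end at Krt19 end among the keratin genes and not beyond them. The lists held 64, 35, 36 and 41 of the 138 loops.

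**Figure D5:**
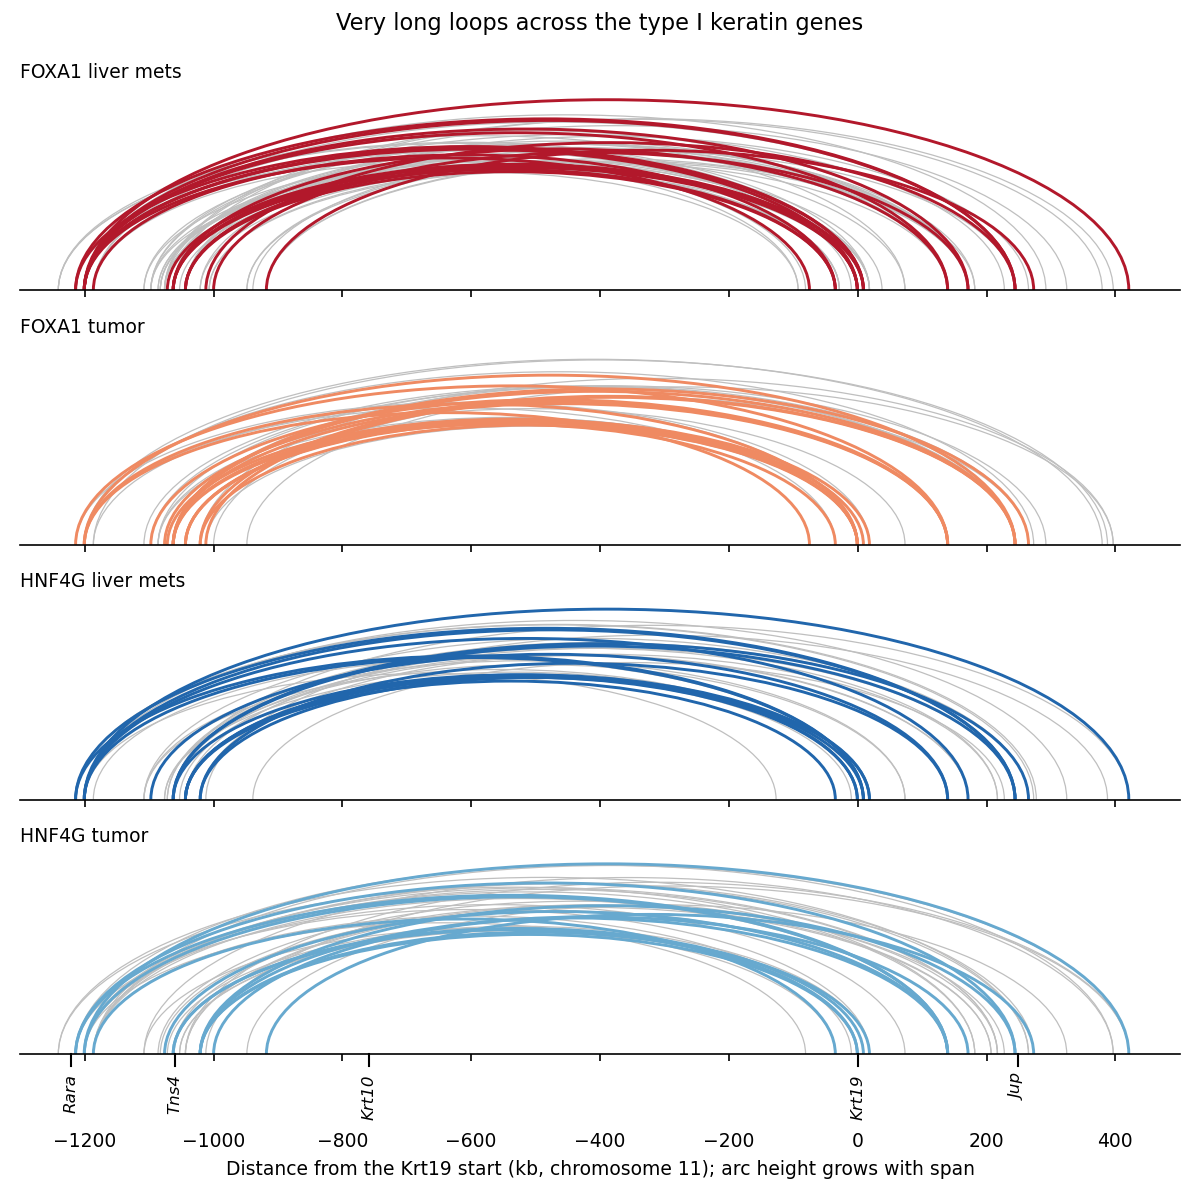
Very long loops from the Rara and Tns4 side to beyond the first keratin start, as arcs, with 1 panel per list. The horizontal axis is the distance from the Krt19 start (kb). Coloured arcs are loops in 2 or more lists and grey arcs are loops in 1 list. The panels hold 64, 35, 36 and 41 arcs, and coloured arcs end repeatedly at Krt19 and Jup.

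Most genes at anchors had some very long loop, and far fewer had a recurring one. Of 10571 protein-coding genes at an anchor with a partner in range, 8062 (76.3%) had a very long loop in at least 1 list and 1431 (13.5%) had a recurring one. The median gene had 2 distinct very long loops, 130 genes had 3 or more recurring loops and 48 had 5 or more. At the level of anchors, 20692 took part in a very long loop, 2585 in a recurring loop and 37 in 5 or more recurring loops.

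The anchor with most recurring loops held the starts of Cdc42ep1, an effector of the small GTPase Cdc42, and Lgals2, a galectin (chr15:78841676-78857967). It had 19, 14, 10 and 7 very long loops in the lists, and 10 recurred. Among its partners, 3 neighbouring anchors lay in Myh9, the heavy chain of nonmuscle myosin IIA. The start of Myh9 met it over 1029 kb with a value of 9.51 in FOXA1 liver mets, and another Myh9 anchor over 1008 kb with 6.58 in FOXA1 tumor. The other partners included Rbfox2, a splicing regulator (1695 kb, 3 lists), and Pdgfb, a growth factor (1163 kb, both liver mets lists).

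Rara had as many recurring loops at a single anchor, 10, with 18, 10, 8 and 10 very long loops over the lists. The anchor of Ahnak, a large scaffold protein on chromosome 19, had 8 recurring loops and 13, 11, 9 and 9 in the lists. Its partners included the start and an exon of Rab3il1, exons of Fads2, a fatty acid desaturase, and Myrf, and Dagla. Lasp1, an actin-binding protein, also had 8, but with an uneven spread of 14, 4, 8 and 2. It met Rara over 1141 kb with 3.95 and 4.17 in the FOXA1 and HNF4G liver mets lists and 1.91 in FOXA1 tumor.

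The next anchors had 7 recurring loops each. They lay at Jup (12, 11, 8 and 7 over the lists), Prr15l (15, 9, 4 and 7), Pdzd7 (14, 5, 5 and 10) and Adipor2, an adiponectin receptor (5, 5, 9 and 5). Adipor2 differed from the others, since its anchor had only 8 protein-coding starts within 500 kb. The count at this anchor was highest in HNF4G liver mets, but the Poisson intervals overlapped (4.12 to 17.1 against 1.62 to 11.7 in each other list). Over the 2 anchors of the gene the counts were 7, 10, 9 and 7, highest in FOXA1 tumor. Partners of the named anchor included an exon of Ret, a receptor tyrosine kinase, over 1243 kb.

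The remaining anchors named by rule had 6 recurring loops each, and the rule kept those with most listings, so that others with 6, among them Trim8 and Slc9a3r1, were left out. Hmga1, an architectural chromatin protein, shared its anchor with AI413582 and met Msln, the cell surface protein mesothelin, over 1804 kb. That loop held 6.89 for FOXA1 and 4.24 for HNF4G in liver mets, and 1.99 in HNF4G tumor. Plec, which encodes the cytolinker plectin, met an anchor at Psca, Slurp1 and Them6 over 1483 kb in 3 lists, Ly6e over 1246 kb in 3 lists and Myh9 over 1619 kb in 2. Tns4 met 6 anchors from Gm12347 to Fkbp10. The others were Socs3, a brake on cytokine signalling, Tk1 with Afmid, B4gat1 with Brms1, and Aes, a Groucho family corepressor. The Aes loop to Cirbp held 6.69 in FOXA1 tumor, 4.16 in HNF4G tumor and 1.87 in FOXA1 liver mets.

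Anchor width goes with these counts. The 15 named anchors were 5933 to 18465 bp wide, above the median of 2341 bp over available pairs, and the part of width in these counts was not tested. Counted per available partner, 1 of the 5 anchors with most listings stayed among the first 5.

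The anchors of Tk1 and Cbx8 had most of their very long loops in 1 list. They were named for leading that list, a choice that favours such an uneven spread. Of 32124 listings over all anchor pairs, 12035 were in FOXA1 liver mets and 6108 in HNF4G tumor. The anchor of Tk1, thymidine kinase, had 24 in FOXA1 liver mets (42 listings in all, 95% Poisson interval 30.3 to 56.8) and 6, 3 and 9 in the other lists. The anchor of Cbx8, a Polycomb protein, had 21 in HNF4G tumor and 10, 3 and 1 in the other lists. C1qtnf1, also among the 5 anchors with most listings, had 20, 9, 2 and 12. Avpi1 on chromosome 19 had 10 in HNF4G liver mets, as many as Cdc42ep1.

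The highest-value loops outside the keratin region differed between lists. In FOXA1 liver mets, Myc, the proliferation factor, met an intron of Gm41335 over 1355 kb with 12.5, and an anchor near Socs3 met Rptor, the mTORC1 scaffold, over 1879 kb with 9.83. In FOXA1 tumor, an intron of Acsl5, an acyl-CoA synthetase, met Afap1l2 with 6.81 and Gm26615 met Stmn1, a microtubule destabiliser, with 6.77. In HNF4G liver mets, Cyp2s1, a cytochrome P450, met Coq8b with 7.02, an anchor 7.6 kb from Klf4 met Gm26144 with 6.91, and Arid3a met an exon of Zbtb7a with 6.91. The Arid3a loop was also in FOXA1 tumor, at 1.91. In HNF4G tumor, an anchor 10.0 kb from Cbx8 met an exon of Slc38a10 with 6.95, and an intron of Wdr7 met Nedd4l, a ubiquitin ligase, with 6.81. The third, between an anchor near Smndc1 and the Acsl5 intron, held 4.34 in HNF4G tumor and 1.87 in FOXA1 liver mets.

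Contacts also recurred between neighbouring anchors. Of 58128 squares of 100 kb by 100 kb that held an available pair, 16730 held a very long loop, 1412 a recurring loop and 54 at least 3 recurring loops. The square with most recurring loops joined chr1:193400001-193500000 to chr1:194600001-194700000 at Plxna2, a semaphorin receptor. The first of these intervals held no protein-coding start at an anchor. There 21 of 35 available pairs were listed and 8 recurred, with 11, 7, 7 and 4 in the lists. The next joined the Ahnak region to Fads3 and Rab3il1 (6 recurring of 56 available pairs), Itga3, a laminin-binding integrin, to Prr15l (6 of 72) and the anchors beyond Tns4 to Krt13, Krt15 and Krt19 (6 of 24). The last of the 5 joined chr19:53400001-53500000 to Acsl5 (5 of 48).

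Gene lists were read against the 13.5% of genes with a recurring very long loop. Among pancreatic and foregut lineage factors, 4 of 19 at an anchor had one. Klf4, a regulator of epithelial differentiation, had 3, all to an intergenic stretch 1001 to 1107 kb away, and Hes1, a Notch target, had 1 over 1102 kb in 3 lists. Gata4 and Grhl2 had 1 each. Foxa1 itself had 8 distinct very long loops of 18 available pairs (5, 2, 0 and 1 over the lists) and Foxa2 6 of 12, with none recurring. Hnf4g had 1, and Sox9, Gata6 and Foxa3 were among those with 0.

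Among pancreatic cancer drivers, 5 of 17 had a recurring very long loop, and Myc had most. Its anchor had 9 distinct very long loops of 19 available pairs, with 6, 4, 1 and 2 over the lists, and 4 recurred. They ran downstream to an exon of Gm30159 (1081 kb, 9.30 in FOXA1 liver mets) and to 3 anchors in introns of Gm41335 (1355 to 1572 kb). Arid1a, Tgfbr2, Rnf43 and Gnas had 1 each, those of Rnf43 and Gnas in both HNF4G lists. Smad4, Cdkn2a, Tgfbr1 and Smarca4 had 0 very long loops.

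Mesenchymal genes held 2 of 14, Vim, an intermediate filament, with 2 recurring loops and Zeb2, a repressor of epithelial genes, with 1. Genes known for far regulatory elements held 2 of 11, Myc and Gata3, and Sox9, Bcl11b, Bmp4, Pax6, Irx3 and Ihh had 0 very long loops. Of the chromatin architecture genes, 2 of 9 recurred, Smc3 of cohesin and Nipbl, its loader. AP-1 and immediate early genes held 4 of 9, namely Jund with 2 and Fos, Fosl1 and Atf3 with 1. The epithelial list held 2 of 8, Krt19 with 5 and Krt8 with 1 over 1377 kb in both liver mets lists. Of the hepatocyte markers, Apoa1 alone lay at an anchor and had 0 recurring loops. These lists are short, and a count of 1 more or fewer moves each share by several points.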

How the data were processed

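Hi-ChIP was made from 8 samples, 2 replicates of each of 4 groups taken from the sample titles. The authors ran HiC-Pro (3.1.0 in the submitters' processing notes) with default settings on mm10, with DpnII fragments and duplicates removed, and then hichipper. How replicates were joined, where anchors came from and the minimum of read pairs were not given in the sources used here. The deposited value per loop has no name in the files and was read as a −log10 adjusted p from its ties and its upper end at 20. The authors also deposited a display score, which follows that value and entered no result. Depth was unknown.

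Spans were taken between anchor midpoints. Available pairs were all pairs of listed anchors 1 to 2 Mb apart on a chromosome. Gene starts came from GENCODE M21 and sequence from RefSeq GRCm38, the files' build. Intervals were exact Clopper-Pearson for ratios, Wilson for shares and Woolf for odds ratios. Mantel-Haenszel odds ratios within anchor width or chromosome had Robins-Breslow-Greenland intervals (Python 3.11.15, scipy 1.17.1). The Clopper-Pearson intervals and those within anchor width were tested on simulated data, and the Wilson and Woolf intervals were not. Simulated pairs were drawn independently, unlike loops that share an anchor. Genes were named for loops in all 4 lists, the 15 promoter anchors with most recurring loops (ties by more listings), the anchor with most loops per list and the 5 with most listings, 5 squares, 3 highest-value loops per list and 9 gene lists. Of 20 protein-coding genes at the 15 anchors, 14 were in the RefSeq promoter table. The loops and gene lists were chosen with earlier results of these data known. A gene of these lists is not reported here by name.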

Additional observations from a re-analysis of the deposited data

Results flagged for a closer look

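The change in the number of very long loops between lines differed between the antibodies. Liver mets held 1.43 times as many as tumor for FOXA1 and 0.915 times as many for HNF4G, so the antibodies moved in opposite directions. With 1 list per group the difference between the antibodies was not tested.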

How the results depend on the processing

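No paired analysis was possible because each list covers both replicates and carries no value per replicate. For the FOXA1 ratio of liver mets to tumor (1.43), a value of 2 or more gave 2.24, shares of each list 1.19 and loops within 25 kb merged 1.35. The HNF4G ratio (0.915) was 0.689 at a value of 2 or more. Recurrence (5.51%) was 23.2% and 63.5% with anchors widened by 5 and 25 kb, 4.32% from 1.5 Mb, and 3.4%, 3.75%, 4.13% and 4.01% without each list in turn, FOXA1 before HNF4G and liver mets before tumor. The promoter odds ratio over any list (1.3) was 1.4 with starts inside the anchor, 1.23 within 5 kb, 1.34 from 1.5 Mb, 1.13 within width classes and 1.6 for recurring loops. In FOXA1 liver mets alone it turned to 0.981 within width classes. The gene-rich odds ratio over any list (1.02) was 1.11 with starts within 250 kb, 0.95 within 1 Mb, 1.05 for genes of all types, 0.969 within width classes, 1.08 from 1.5 Mb and 1.11 for recurring loops. It turned from 0.933 to 1.02 in FOXA1 liver mets at 250 kb and from 1.06 to 0.977 in HNF4G liver mets at 1 Mb. The gene-poor odds ratio (1.3) was 1.15, 1.35, 1.26, 1.35, 1.2 and 1.51 under the same alternatives in the same order. The rate of chromosome 19 over that of all chromosomes (1.56) was 4.22 per Mb, 1.3 as a share of the chromosome's loops, 1.66 from 1.5 Mb and 1.3 in the widest anchors, the last chosen after seeing the data. The CTCF odds ratio (1.31) was 1.84 with any plus core left and any minus core right, 1.14 with a stricter core, 1.15 for recurring loops and 1.56 from 1.5 Mb. Genes with recurring loops (1431) fell to 146 for loops in 3 or more lists and 512 from 1.5 Mb. Of the first 5 anchors, 1 stayed per available partner and 2 from 1.5 Mb, and of the first 5 squares 3 stayed with the grid shifted by 50 kb. Where a value moved, the cause was not tested. Of 132 alternatives over all results, 58 stayed within the interval or count range of the reported value, 71 moved beyond it and 3 crossed 1 from a reported interval that excluded 1. A further 9, all on gene density, crossed 1 where the reported interval already held 1. The 58 include alternatives at a value of 1.3 or more, which removed no loop because the lowest list value was 1.87. Since 96.6% to 98.4% of very long loops share the lowest list value, rank among them cannot be read from the lists.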

Other observations

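A 3 Mb stretch of chromosome 11, chosen after its values were seen, holds the anchors of Tk1, Socs3, C1qtnf1 and Cbx8 named above. Of 4665 available pairs there, the listed share per 1000 was 37.1 (32.0 to 42.9) in liver mets and 20.4 in tumor for FOXA1, and 10.9 in liver mets and 25.3 (21.2 to 30.2) in tumor for HNF4G. Over the rest of chromosome 11 the rates were 21.2, 14.1, 9.10 and 12.1. In the stretch, as over the rest of chromosome 11, FOXA1 was higher in liver mets and HNF4G higher in tumor. Neither difference was tested.

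Pairs with any plus-strand CTCF core on the left and any minus-strand core on the right made up 0.748% of very long loops against 0.427% of available pairs, with an odds ratio of 1.84 (1.61 to 2.12). In recurring loops the odds ratio was 2.69 (1.71 to 4.24). Wide anchors hold more cores, and the part of anchor width in this result was not tested.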
